A study of Mus musculus with 4 samples.

Results

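The response of mouse liver to Wy14643, a synthetic agonist of peroxisome proliferator activated receptor α (PPARα), was compared between wild-type and PPARα-null mice by setting one genotype's response against the other's. All 4 arrays of the series entered the comparison. For each probe set, a group of short probes that reads 1 transcript, the log2 ratio of Wy14643 to control in wild-type mice was taken, and the same ratio in PPARα-null mice was subtracted from it. Below, the first ratio is the wild-type response, the second the null response, and their subtraction the difference of responses. The 64 Affymetrix control probe sets were left out, so that 22626 of 22690 probe sets remained. The wild-type response and the null response share no array, while the difference uses all 4.

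PPARα is a nuclear receptor that is abundant in liver, where fatty acids and fibrate-like compounds activate it. It binds DNA together with the retinoid X receptor and is known as a master switch of fatty acid breakdown in mitochondria, peroxisomes and microsomes, of ketone body formation and of lipid transport. In rodents its agonists enlarge the liver and multiply peroxisomes, and they also lower many transcripts of inflammation and of drug metabolism. Because Wy14643 is a ligand of this receptor, mice without it serve as the control for effects of the compound that do not pass through PPARα.

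The livers came from mice labelled male, 12 to 20 weeks of age, which ate food with 0.1% Wy14643 or the same food without it for 5 days. The labels give the strain 129S1/SvImJ for wild-type and 129S4/SvJae for PPARα-null mice, so that loss of the receptor and the substrain cannot be told apart. The null mice lack the receptor in the whole body. RNA of 5 mice per group was pooled and hybridised to 1 MOE430A array per group, and with 1 array per group every value below is a description, with no test and no replicate error. The values are GCRMA intensities from the authors, on the linear scale. Background was set at 14.5, below which lie 90% of the intensities of 76 probe sets whose 57 genes are not known from liver. A level above it held for 49.6% to 50.2% of probe sets per array.

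Some facts bear on the labels. Ppara read 847, 1250.1, 326 and 428, in the order wild-type control, wild-type Wy14643, null control and null Wy14643, which is the order of all such sets of intensities below. Its level was lower in null than in wild-type mice on both diets but above background throughout, and its difference of responses was 0.17. The sources used here do not state whether the probes lie in the deleted stretch of the gene. Against the label male, Xist, the RNA that female cells make from their silenced X chromosome, read 606, 328, 603 and 1030 on 1 probe set, and all 6 probe sets of the 3 measured Y-linked genes Eif2s3y, Kdm5d and Uty were below background on every array, with 10.3 as the highest. The female-predominant sulfotransferase gene Sult3a1 read 12504, 3404, 12129 and 11611, and the male-predominant steroid dehydrogenase gene Hsd3b5 was below background on all 4 arrays. These markers were chosen after values had been seen, and on every array Xist was above and the Y-linked genes below background. The levels of Xist and Sult3a1 themselves differed between the groups. For the array titled wild-type Wy14643, the free-text field speaks of control conditions, while title and source name give Wy14643 and were followed. The size of the pools and the RNA labelling are described differently in different parts of the study's text.

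The difference of responses reached 1.5-fold, the threshold used here throughout, for 2337 probe sets in the direction of a higher wild-type response (10.3% of 22626) and for 2010 in the lower direction (8.88%). It reached 4-fold for 228 probe sets higher and 229 lower. Over all probe sets the standard deviation was 0.64 for the wild-type response, 0.28 for the null response and 0.67 for the difference, on the log2 scale. The null pair thus shows how far arrays with few responses lay apart, although its spread also holds any real response of null mice to Wy14643.

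To sort functions, each gene was given the brightest of its probe sets, values below background were set to background, and the 7388 genes above background on at least 1 array were classed. A gene counted as responding in wild-type mice only when the wild-type response and the difference both reached 1.5-fold and the null response did not. This class held 839 genes higher on Wy14643, which is 11.4% of the genes classed, and 813 genes lower (11%). In 31 genes both genotypes were higher (0.42%) and in 122 both were lower (1.65%). Opposite responses were seen in 33 genes that were higher in wild-type and lower in null mice (0.447%) and in 36 with the reverse pattern (0.487%). A response in null mice only was seen in 41 genes in the higher direction (0.555%) and 93 in the lower (1.26%). In a further 426 genes 1 response passed the threshold but the difference did not, and 4954 genes had no response past it, among them 452 whose difference nonetheless did. Responses of genes below background on an array are bounds, and a fold against such an array is given as at least that size. A null response under 1.5-fold on 1 pair of arrays does not show that the gene is unresponsive without the receptor.

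**Figure D1:**
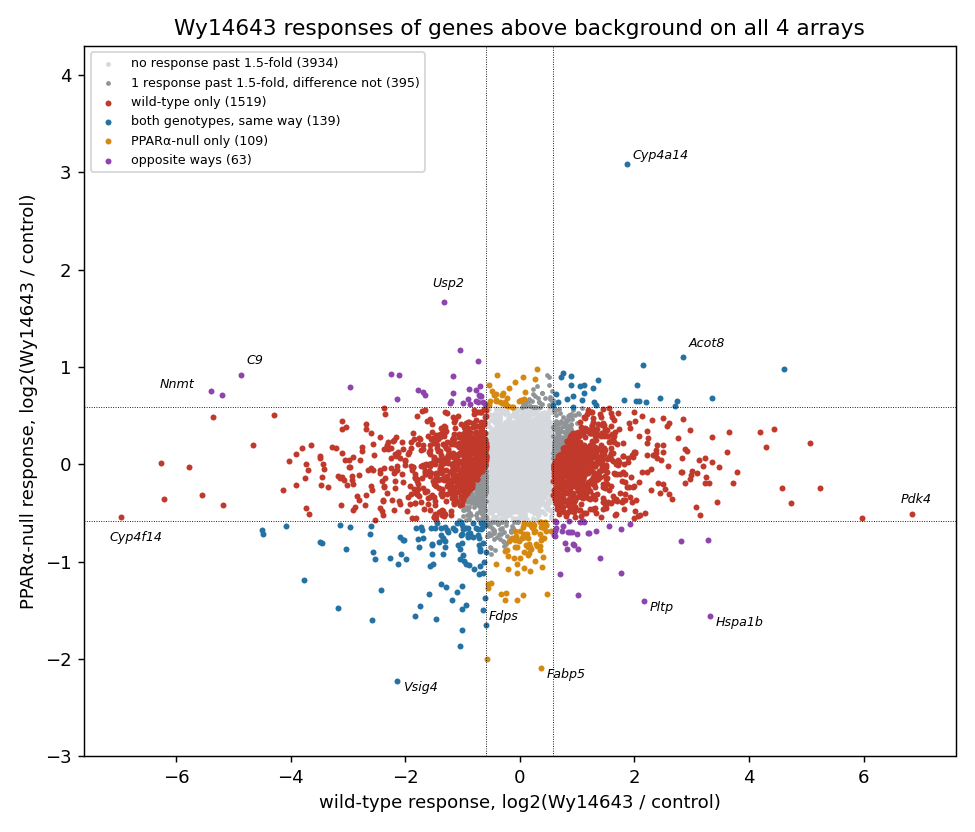
Wild-type response (horizontal) against PPARα-null response (vertical), both as log2 of Wy14643 over control, for the 6159 genes above background on all 4 arrays, with 1 point per gene coloured by class and dotted lines at 1.5-fold. The cloud is wide along the wild-type axis, out to Pdk4 and Cyp4f14, and narrow along the null axis, where few genes besides Cyp4a14 exceed 2 log2 units.

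The wild-type response past 1.5-fold took in 1063 genes higher (14.4%) and 1140 lower (15.4%), and the null response 149 higher (2.02%) and 304 lower (4.11%). Among the genes higher in wild-type mice 78.9% were in the wild-type-only class, and among those lower 71.3%. In the wild-type-only class the median wild-type response was 1.06 for the higher and -1.05 for the lower genes, and the median null response was -0.0028 and 0.014. Null responses pointed the same way as the wild-type in 344 of the 839 higher genes and the other way in 428, and in the remaining 67 both null arrays were below background. Sharing between the genotypes was counted by size of the wild-type response. Of the 361 genes that were 2-fold to 4-fold lower in wild-type mice, 49 (13.6%) were also at least 1.5-fold lower in null mice, and 9 of 52 that were at least 8-fold lower (17.3%). Of the 346 genes 2-fold to 4-fold higher, 10 (2.89%) were also higher in null mice, and 2 of the 31 at least 8-fold higher (6.45%). At 4-fold to 8-fold the shares were close, with 14 of 93 lower genes (15.1%) and 9 of 61 higher genes (14.8%). At 1.5-fold to 2-fold they were 36 of 561 lower genes (6.42%) and 10 of 524 higher genes (1.91%). These counts are of genes above background on all 4 arrays. Across these 6159 genes Pearson's r between the responses was 0.12 and Spearman's rho 0.12, as a description of genes that share the same 4 arrays.

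Further probe sets of the same genes gave a check on the probes, though not on the RNA. For genes higher in wild-type mice only, 428 of 468 further probe sets (91.5%) had a difference of the same sign and 241 (51.5%) fell in the same class. For genes lower in wild-type mice only, the counts were 420 of 526 (79.8%) and 171 (32.5%). In the small classes, none of the 17 further probe sets of genes higher in both genotypes and 16 of 80 of genes lower in both fell in the same class. Of those of genes with opposite responses, 6 of 24 did where the wild-type was higher and 2 of 27 where it was lower. Of those of genes responding in null mice only, 3 of 27 did in the higher and 7 of 49 in the lower direction.

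Genes higher in wild-type mice only were led by genes of fatty acid use. Pdk4, a kinase that shuts off pyruvate dehydrogenase and so spares glucose, read 27.4 and 3152 in wild-type and 44.3 and 31.0 in null mice. Its wild-type response was 6.85 (115-fold), its null response -0.51, and its difference of responses 7.36, the largest of all genes above background on all 4 arrays. The wild-type Wy14643 array stood far above the other 3, which lay close together. Fabp4, a fatty acid carrier best known from adipocytes, read 50.6 and 3181 in wild-type and 82.6 and 56.5 in null mice with a difference of 6.52, and another probe set with 50.3, 2390, 80.3 and 83.5 gave 5.51. The lipoprotein lipase gene Lpl read 33.4, 1261, 36.4 and 30.7 (difference 5.48), and the carnitine acetyltransferase gene Crat 46.0, 1219, 37.3 and 28.3 (difference 5.12). In all 4 genes the null pair differed by less than 1.5-fold. It leaned lower on Wy14643 on the brightest probe set of each, but not on the second of Fabp4.

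The rest of the 12 largest positive differences among genes above background on all 4 arrays reached beyond lipid metabolism. The membrane-binding annexin gene Anxa2 read 35.3, 1178, 45.2 and 52.6 (4.84), the DNA-dependent protein kinase gene Prkdc 20.1, 479, 19.6 and 16.6 (4.81), the fatty acid elongase gene Elovl3 25.4, 498, 14.8 and 16.7 (4.12) and the carnitine transporter gene Slc22a5 48.6, 1047, 18.0 and 23.1 (4.07). Chkb, a choline kinase gene, and Ggct, a glutathione-breakdown gene, had differences of 3.91 and 3.86. The other two, the heat shock gene Hspa1b and the adipocyte membrane protein gene Apmap, responded in opposite directions and are described below.

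For several genes the wild-type response can only be given as a bound, since arrays other than wild-type Wy14643 were at or near background. The omega-hydroxylase gene Cyp4a12a read 6.27, 3423, 7.56 and 10.02, which is at least 237-fold more with Wy14643 than without it in the wild-type, while both null arrays were below background. Cyp4a31, a close relative, read 25.1, 3588, 8.10 and 9.64, a 143-fold wild-type response with both null arrays below background. The fatty acid carrier gene Fabp3 read 18.7, 2679, 12.4 and 17.0 (143-fold in wild-type mice). Krt23, a keratin gene, was at least 62.9-fold higher, and Lamb3, a laminin gene, at least 33.2-fold. Cox6b2, a cytochrome oxidase subunit gene known from testis, read 45.2, 1334, 6.71 and 7.76. Cyp4a genes are near-identical to each other, and probes of one may read another.

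**Figure D2:**
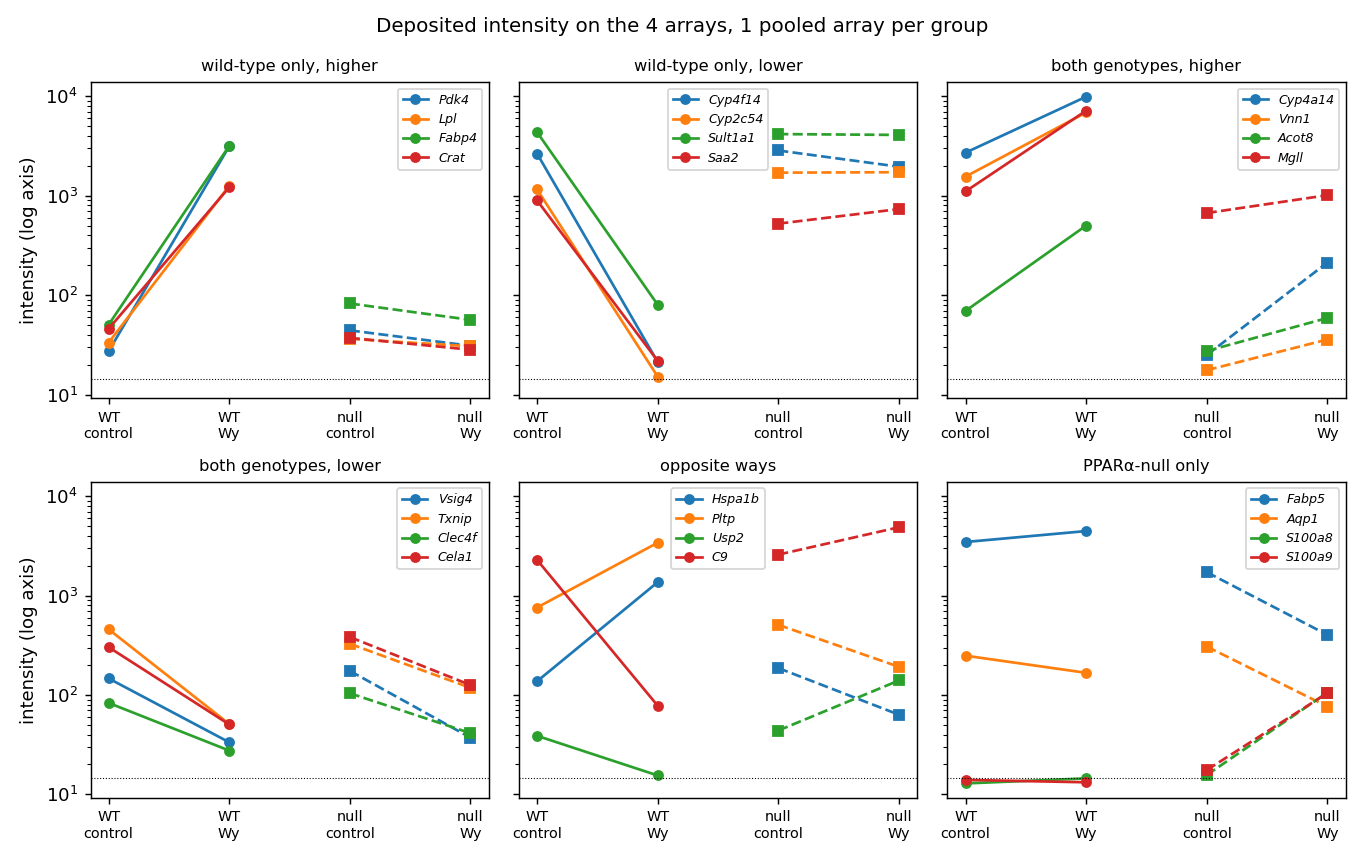
Deposited intensity (log axis) of 4 genes for each of 6 response patterns on the 4 pooled arrays, with circles and solid lines for wild-type mice, squares and dashed lines for PPARα-null mice and the dotted line at background (14.5). Pdk4, Lpl, Fabp4 and Crat are at 1219 or more on the wild-type Wy14643 array and at 82.6 or less on the other 3, while Vsig4 is at 33.4 and 37.2 on both Wy14643 arrays.

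Lists of genes by textbook function show where the wild-type-only class gathered, and each list is read against the 11.4% and 11% above and against the median difference over all genes classed, which was 0.01. In mitochondrial fatty acid oxidation, 15 of 23 classed members were higher in wild-type mice only, none was lower in wild-type mice only, and the median difference was 1.12. They covered transport into the matrix, with Slc22a5, Crat, Cpt2 (1.84 and -0.10 as wild-type and null response) and Slc25a20 (1.43 and 0.13), and the chain-shortening steps, with Acads (1.52 and 0.30), Acadm (1.23 and 0.14), Decr1 (1.81 and -0.00) and Eci1 (2.08 and 0.29). Cpt1a, the regulated entry step, had 0.67 and 0.31, and Etfb, an electron carrier subunit, 0.76 and 0.48. In both genes the null pair leaned higher as well, and the difference stayed under the threshold. Peroxisome biogenesis had 8 of 15 members higher in wild-type mice only with a median difference of 0.84, led by the proliferation factor gene Pex11a (2.89 and 0.16), and Pex26 departed from it with -0.54 and 0.61.

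Handling of fatty acids outside the oxidation pathway was also higher in wild-type mice in part. Ketone body synthesis had 3 of 5 classed genes higher in wild-type mice only, among them Acat1 (0.67 and -0.13) and the transporter gene Slc16a1 (2.29 and -0.26), and fatty acid uptake and binding 5 of 12. Among acyl-CoA synthetase and thioesterase genes 10 of 18 were higher in wild-type mice only, among them Acot4 (3.45 and -0.38), the transporter gene Slc27a4 (3.35 and 0.02) and Acot1 (3.34 and 0.28). Acot2, a mitochondrial thioesterase gene, read 11.9, 229.9, 11.4 and 13.5, a wild-type response of at least 15.9-fold, and both of its null arrays were below background. Acsm1 (-1.31 and -0.14) and Slc27a5 (-0.89 and 0.27) were lower in wild-type mice only. Of 18 lipid droplet and lipolysis genes 10 were higher in wild-type mice only and the median difference was 1.26. They included the adipose triglyceride lipase gene Pnpla2, which read 143, 1122, 124 and 159, its inhibitor G0s2 (942, 5099.8, 588 and 480.0) and its activator Abhd5 (1.82 and -0.46). The droplet coat genes Cidec, with a wild-type response of at least 20.3-fold, and Plin5, with 12.4-fold, were below background on both null arrays. The coat gene Plin3 went the other way (-0.81 and 0.42), and so did the brighter droplet gene Cideb (-0.72 and 0.24), which read 2777, 1686, 2527 and 2987.

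Triglyceride and phospholipid synthesis was higher in wild-type mice in part, with 10 of 16 classed genes of its list higher in wild-type mice only (median difference 1.13). In the same list Lpin1 was lower (-3.46 and -0.81) and Dgat1 higher (2.08 and 0.65) in both genotypes. Dgat2 (-0.33 and 0.16), Pemt (-0.41 and -0.20), Pcyt1a (-0.19 and -0.04) and Aqp9 (-0.26 and -0.07) stayed under 1.5-fold. Gpat4 (2.22 and 0.09) and Gpam (0.69 and 0.10) encode enzymes of the first acylation, Gpd2 (2.41 and -0.19) and Gpd1 (1.47 and -0.38) enzymes of glycerol phosphate, and Chpt1 (1.65 and -0.09) an enzyme of phosphatidylcholine synthesis. The phosphatidylcholine carrier gene Pctp read 1551, 6003, 1296 and 1389. Me1, the malic enzyme gene that supplies NADPH, read 1789.5, 6353, 1169.7 and 948, and the lipoprotein receptor gene Vldlr 314, 908, 404 and 309.9. Scd1, a desaturase gene, read 7578, 10819, 4479 and 3439. On this, its brightest probe set, neither response passed 1.5-fold and the difference was 0.90, but another read 2365, 5907, 686 and 247, with opposite responses of 1.32 and -1.47.

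Outside lipid metabolism, most standard proteasome subunit genes were higher in wild-type mice only. Of its 36 classed subunit genes 24 were higher in wild-type mice only and none was lower, with a median difference of 0.84, and the summed intensity of the list was 35793, 65097, 35019 and 35810. The largest differences were those of Psmd14 (1.68 and -0.51), Psmd4 (2.01 and 0.12) and Psmb2 (1.68 and 0.01), genes of the regulatory and the catalytic part. The inducible subunit genes Psmb8 (-2.55 and -0.06), Psmb10 (-2.68 and 0.36) and Psmb9 (at least 2.56-fold), which replace the standard ones in immunoproteasomes, were lower in wild-type mice only. Respiratory chain subunits had smaller differences, with 17 of 69 higher in wild-type mice only and a median difference of 0.44. Cytosolic ribosomal proteins had 1 of 37, Rplp0, and a median of 0.22. The list of keratins, annexins and cytoskeleton had 12 of 29, with Anxa2, Krt23 and Tubb5 (1.28 and -0.46) at the top.

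**Figure D3:**
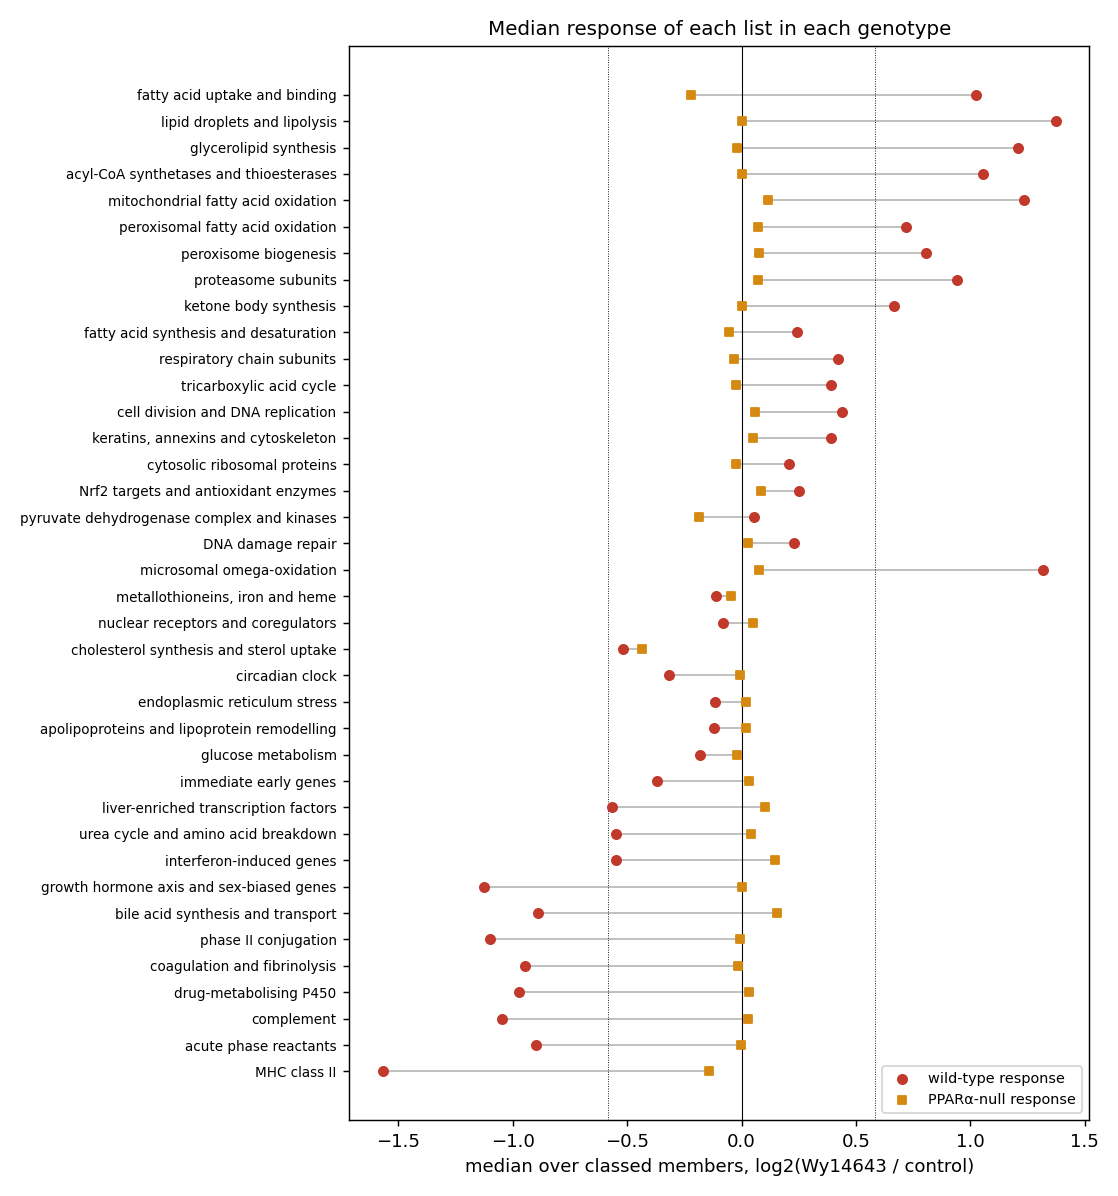
Median wild-type response (circles) and median PPARα-null response (squares) over the classed members of each functional list, as log2 of Wy14643 over control, with lists ordered by median difference of responses and dotted lines at 1.5-fold. Wild-type medians run from -1.57 for MHC class II to 1.37 for lipid droplets and lipolysis, and null medians stay between -0.43 and 0.16.

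Genes lower in wild-type mice only were led by enzymes and transporters for drugs, steroids and xenobiotics. Cyp4f14, a P450 gene for fatty acid and leukotriene hydroxylation, read 2652 and 21.3 in wild-type and 2856 and 1962 in null mice, a wild-type response of -6.96 against -0.54 in null mice and a difference of -6.42. Cyp2c54 read 1158, 15.2, 1709.7 and 1728 (-6.27), and the sulfotransferase gene Sult1a1 4358, 80.2, 4177 and 4097 (-5.74). The wild-type Wy14643 array alone was low in these 3 genes. The transporter gene Slc22a26 read 1268, 17.1, 1117 and 873 (-5.86), the acute phase gene Saa2 897, 21.8, 525 and 736 (-5.85) and the retinol dehydrogenase gene Rdh16f2 1705, 36.6, 2197 and 1761 (-5.22). The bile acid transporter gene Slco1a4, the early-response gene Ier2 and Cyp3a16 completed the largest negative differences of this class among genes above background on all 4 arrays, with -4.86, -4.80 and -4.75. Saa1 read 1721, 7.502, 1184 and 1011, a drop of at least 119-fold in the wild-type, and for Aox3, an aldehyde oxidase gene, the drop was at least 36.5-fold.

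By function, 13 of 25 drug-metabolising P450 genes were lower in wild-type mice only, with a median difference of -1.01. Besides Cyp2c54 and Cyp3a16 they included Cyp2c70 (-3.05 and 0.05) and Cyp1a2 (-2.60 and 0.32), while Cyp2e1 (0.01 and 0.11) and Cyp2f2 (-0.13 and 0.18) changed little and Cyp2d9 was higher in wild-type mice only (1.40 and 0.30). Cyp3a11 had 0.50 and 0.82, with its larger response in null mice. Conjugation enzymes had 15 of 33 lower (median -0.91), for example Gsta2 (-3.70 and -0.06), Gstm2 (-3.48 and 0.09) and Ugt2b1 (-2.96 and -0.03), and 5 higher, among them the peroxisomal glutathione transferase gene Gstk1 (1.02 and -0.01). Bile acid synthesis and transport had 10 of 22 lower (median -0.88), with Cyp7a1, the rate-limiting enzyme of bile acid synthesis (-3.65 and 0.20), the reductase gene Akr1d1 (-2.92 and -0.12) and the export pump gene Abcb11 (-1.95 and 0.10).

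Secreted plasma proteins formed the other large group lower in wild-type mice only. Acute phase reactants had 17 of 28 members in it and a median difference of -1.24, complement 14 of 21 (-1.17) and coagulation and fibrinolysis 15 of 22 (-0.92). Orm2 had responses of -3.28 and 0.17, the complement protease gene C1s1 -4.04 and 0.03, C8b, a part of the membrane attack complex, -3.91 and -0.21, and the clotting factor genes F11 and F7 -3.45 and -0.13 and -3.11 and 0.36. Of the fibrinogen genes, Fga (-0.32 and -0.09) and Fgg (-0.42 and -0.01) stayed under 1.5-fold, while Fgb (-0.62 and -0.13) passed it in wild-type mice with a difference that did not. Hp and Lbp leaned higher in both genotypes (0.32 and 0.34 and 0.56 and 0.28). The plasma protein genes Alb (0.34 and 0.15), Ttr (-0.15 and -0.00) and Apob (0.04 and 0.02) had no response past 1.5-fold. Of the 9 classed hepatocyte markers, a list that holds these 3, Cps1 (-1.09 and 0.02) and Ahsg (-0.69 and 0.03) were lower in wild-type mice only. The summed intensity of the hepatocyte markers lay between 86177 and 101602 on the 4 arrays.

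Amino acid and glucose metabolism were lower in wild-type mice in part. Of 44 urea cycle and amino acid genes 19 were lower in wild-type mice only and 2 higher, with a median difference of -0.61. Prodh (-3.80 and 0.17), Hal (-3.72 and 0.00) and Got1 (-3.49 and 0.07) had the largest differences, and in the urea cycle Asl (-2.66 and -0.06) and Otc (-2.12 and 0.13) contrasted with Arg1 (0.04 and 0.05). In glucose metabolism 9 of 20 were lower, among them the pyruvate kinase gene Pklr (-3.68 and -0.51), the glucose 6-phosphate transporter gene Slc37a4 (-2.98 and 0.05) and Pck1, a gene of gluconeogenesis (-1.32 and 0.02). Among liver-enriched transcription factors 9 of 19 were lower in wild-type mice only and none was higher in wild-type mice only. The lower ones included Dbp (-1.80 and 0.50), Cebpa (-1.39 and 0.31) and Foxa2 (-1.20 and -0.19), while Hnf4a leaned lower in both genotypes (-0.54 and -0.57). Creb3l3 (1.04 and 0.52) and Cebpb (0.60 and 0.10) rose past 1.5-fold in wild-type mice, with differences that stayed under it. In the MHC class II list 5 of 6 classed genes were lower in wild-type mice only (median difference -1.39), for example Cd74 (-1.81 and -0.30). They include H2-Ab1, only 1.53-fold lower, and the protease gene Ctss (-1.82 and -0.56), which is also in the Kupffer cell list and close to the threshold in null mice.

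**Figure D4:**
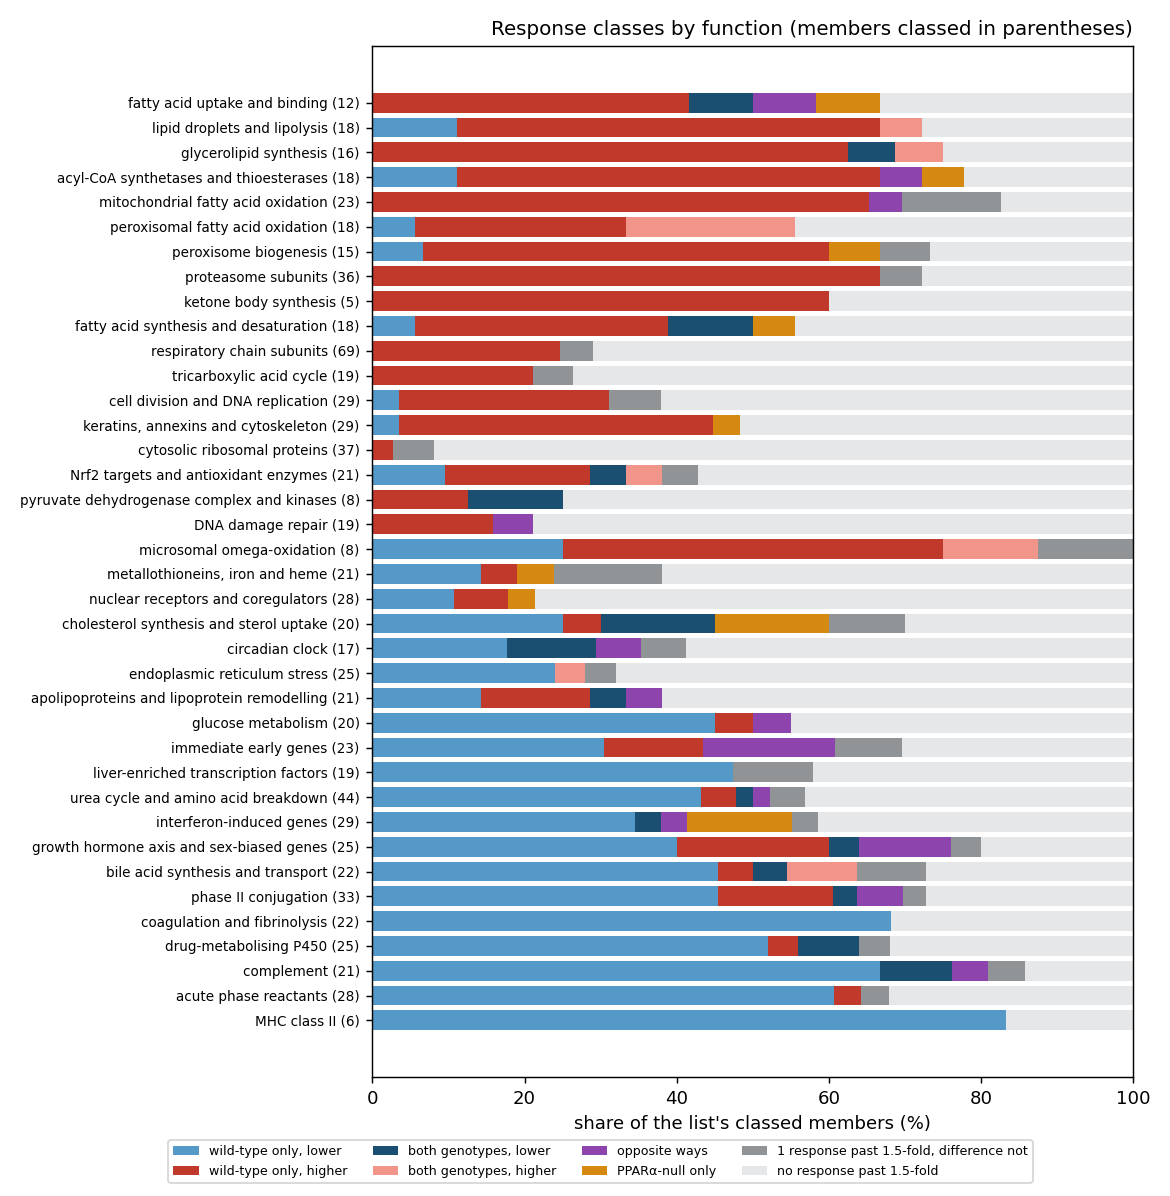
Share of the classed members of each functional list (number in parentheses) that fell in each response class, in percent, with lists ordered by median difference of responses. Red (higher in wild-type mice only) fills most of the lists of mitochondrial fatty acid oxidation, lipid droplets, glycerolipid synthesis and proteasome, light blue (lower in wild-type mice only) most of the plasma protein lists, and cholesterol synthesis holds members lower in both genotypes and in null mice only.

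PPARα binds a DNA element made of direct repeats of a hexamer with 1 base between them, and the RefSeq promoter windows (assembly GRCm38.p6, 250 bases before to 50 after each start) were searched for it as AGGNCANAGGNCA on both strands. The pattern was in the windows of 122 of 27025 genes (0.451%). It was found for 1 of 698 genes higher in wild-type mice only that have a window (0.143%), for 6 of 655 lower in wild-type mice only (0.916%), for none in the classes of both genotypes, opposite responses or null mice only, and for 15 of 4082 genes with no response (0.367%). The single hexamer AGGTCA, which the longer pattern can contain, was in 18.1% of all genes with a window and in 15.8% of those classed. Its share was 17.8% in the genes higher and 18.9% in the genes lower in wild-type mice only, and 14.8% in genes with no response. These windows are short, and a lack of these letters in them says nothing of binding elsewhere. Matches of the longer pattern in wild-type-only genes are shown here, as stretches of receptor-element letters nearest to a responding start, read 5′ to 3′ on the gene's strand, with the match in capitals.
Cyp2d9 (chr15:82452315-82452343, + strand): ggacacagAGGACAAAGGGCAaccctggc
Cyp2d10 (chr15:82407231-82407259, - strand): ggacacagAGGACAAAGGGCAaccctggc
F7 (chr8:13025992-13026020, + strand): ctccccccTGACCTTTGCCCTcccggcag
Fam193b (chr13:55571131-55571159, - strand): actgagtgTGCCCTCTGACCTgttggcag
Nisch (chr14:31206947-31206975, - strand): aaggcccaTGGCCTCTGCCCTtccctgct
Pdzk1 (chr3:96830000-96830028, + strand): ccgggagcAGGACAGAGGTCActtgaact
Cyp2d9, higher in wild-type mice only (1.40 and 0.30), and Cyp2d10, lower in wild-type mice only (-0.97 and 0.04), carry the same letters in these stretches. The others belong to genes lower in wild-type mice only, namely the clotting factor gene F7, Fam193b (-0.76 and 0.46), Nisch (-0.66 and 0.41) and the scaffold gene Pdzk1 (-0.75 and -0.07).

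Genes higher in both genotypes were few, and several are known PPARα targets. Cyp4a14, an omega-hydroxylase gene, read 2717 and 9932 in wild-type and 25.04 and 213 in null mice. Its null response (3.09, 8.51-fold) exceeded its wild-type response (1.87), but the null Wy14643 level was below the wild-type control level. Vnn1, the pantetheinase gene, read 1561, 6895, 17.6 and 35.9, with responses of 2.14 and 1.03 at very different levels, and the peroxisomal thioesterase gene Acot8 69.6, 502, 27.5 and 59.1 (2.85 and 1.10). Of 18 genes of peroxisomal fatty acid oxidation 4 were higher in both genotypes, namely Acot8, the bifunctional enzyme gene Ehhadh (2.44 and 0.68), Ech1 (2.19 and 0.65) and the thiolase gene Acaa1b (1.04 and 0.80). A further 5 were higher in wild-type mice only, among them Acaa1a (1.79 and 0.08) and Hsd17b4 (1.42 and 0.20), so the pathway was split between the classes. Mgll, a monoglyceride lipase gene, read 1108, 7194, 671 and 1014, where the null response of 0.60 was just past the threshold. On its other probe sets above background (2.04 and 0.10, and 2.74 and 0.30) the null response stayed under 1.5-fold. Dgat1, which makes triglyceride, had 2.08 and 0.65.

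Other genes higher in both genotypes included transporters of the bile canaliculus and the hepatocyte's blood side. Abcb4, the phospholipid exporter of bile, read 1364, 2979.9, 1050.4 and 1846 (1.13 and 0.81), and Abcc3 had 0.75 and 0.94. The epoxide hydrolase gene Ephx1 had 1.32 and 0.61 and Creld2, an endoplasmic reticulum chaperone gene, 1.11 and 0.74. By the smaller of both responses the leading genes were Cyp4a14, Acot8, Vnn1, the imprinted gene Peg3 (4.60 and 0.98), the translation factor gene Eif2b4 (0.89 and 0.90), D17H6S56E-5 (1.36 and 0.87), Pigq (2.04 and 0.81), a gene of glycolipid anchor synthesis, and Abcb4. Eif2b4 was the gene of these with the most similar responses (difference -0.01). On further probe sets above background on some array, the null response stayed under 1.5-fold for Peg3 (0.03 and 0.58) and for Pigq (-0.36, -0.10, 0.56 and 0.21). The further probe set of D17H6S56E-5 was below background on both null arrays.

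Genes lower in both genotypes numbered 122, and they included transcripts of cells other than hepatocytes. Vsig4, a complement receptor of Kupffer cells, read 147 and 33.4 in wild-type and 175 and 37.2 in null mice, which is 4.39-fold and 4.69-fold lower in wild-type and null mice. Both Wy14643 arrays were low and both control arrays high. Of the 12 classed Kupffer cell markers 9 were lower in both genotypes, with a median response of -1.58 in wild-type and -0.95 in null mice. They included the lectin gene Clec4f (83.2, 27.6, 104 and 41.3), Cd5l (-1.99 and -0.98), C1qc (-1.75 and -1.46) and C1qa (-1.57 and -1.04). Adgre1, which encodes F4/80, had -0.51 and -0.72, Slc40a1, the iron exporter gene, 0.14 and -0.93, and Marco, Cd68, Fcgr1 and Folr2 were below background on all 4 arrays. The summed intensity of the list was 3467, 2748, 3977 and 2061, of which Slc40a1 alone made up 1983, 2192, 2227 and 1167. In pooled whole liver, fewer cells of a type and less RNA per cell cannot be told apart.

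Sinusoidal endothelial markers had the larger median response in null mice. Of 16 classed, 6 were lower in both genotypes and 3 in null mice only, with a median response of -0.30 in wild-type and -0.77 in null mice. The lectin gene Clec4g had -1.05 and -1.87, Mrc1 -0.59 and -1.65, Bmp2 -1.005 and -1.48 and Fcgr2b -1.18 and -1.40, whereas Stab2 (-0.26 and -0.06), Stab1 (-0.35 and -0.37) and Lyve1 (0.20 and 0.14) differed little, and Pecam1 was below background. The summed intensity was 2924, 1829, 3259 and 1394. Stellate cell markers did not move together, with Pdgfrb (-1.16 and 0.91) and Reln (-0.70 and 0.80) in opposite directions, Dcn lower in wild-type mice only (-1.01 and 0.27), Col3a1 higher in null mice only (-0.18 and 0.79), and Col1a1, Lrat, Des and Timp1 below background. Their summed intensity lay between 2414 and 4436. The part of these cell types in other results was not tested.

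**Figure D5:**
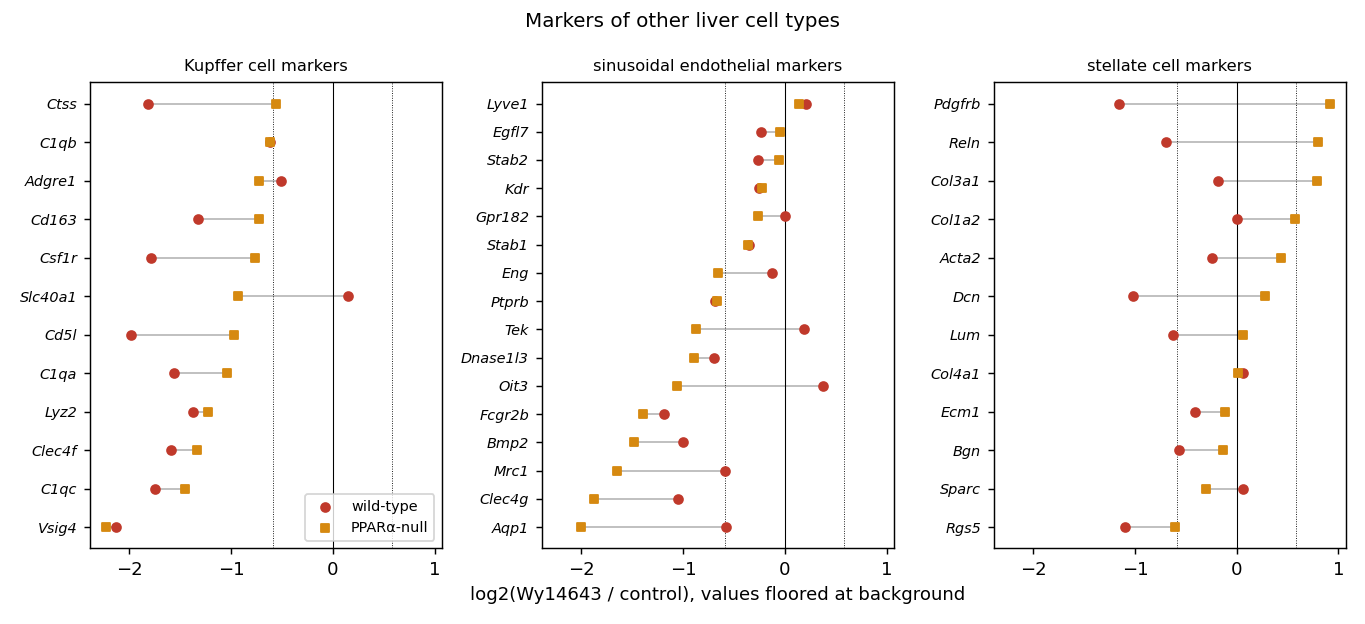
Wild-type (circles) and PPARα-null (squares) responses, as log2 of Wy14643 over control with values floored at background, of the classed markers of Kupffer, sinusoidal endothelial and stellate cells, with dotted lines at 1.5-fold. Of the 12 Kupffer markers 9 lie beyond the lower line in both genotypes, from C1qb to Vsig4, while Pdgfrb and Reln lie on opposite sides of 0.

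Other genes lower in both genotypes were of mixed function. Txnip, a thioredoxin inhibitor that responds to glucose, read 458 and 51.0 in wild-type and 327 and 118 in null mice, with responses of -3.17 and -1.47. Lpin1, a phosphatidate phosphatase and coregulator gene, had -3.46 and -0.81, Angptl8, an insulin-induced lipase inhibitor gene, -3.48 and -0.80, and the repressor gene Bhlhe40 -2.57 and -0.90. In these 4 genes the wild-type response was the larger. The elastase gene Cela1 read 303, 50.5, 383 and 126, the gap junction gene Gja1 68.3, 24.9, 200.4 and 66.4 and the chemokine gene Cxcl1 89.3, 16.7, 347 and 142. Tmem184c (-1.83 and -1.56) completes the 8 largest. Of the exocrine pancreas markers, Cela1 and Prss2 were above background on some array, and Cela2a, Cpa1, Cpb1, Pnliprp1, Ctrb1 and Cel were below it on all 4.

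Cholesterol synthesis leaned lower in both genotypes. Its median response was -0.52 in wild-type and -0.43 in null mice, with a median difference of -0.16, and its summed intensity was 26252, 19329, 27134 and 19324. Of 20 classed genes, 3 were lower in both genotypes, namely Msmo1 (-1.81 and -0.66), Cyp51 (-0.90 and -0.75) and Fdps (-0.65 and -1.50). A further 3 were lower in null mice only, Hmgcs1 (0.46 and -0.62), Lss (-0.06 and -1.02) and Pmvk (-0.09 and -0.85), and 5 in wild-type mice only, among them Sqle (-1.46 and -0.53) and the sterol carrier gene Stard4 (-2.24 and -0.37). Fatty acid synthesis was mixed in a similar way. Acly (-1.45 and -0.60) and Elovl6 (-1.72 and -0.64) were lower in both genotypes, Fasn, the fatty acid synthase gene, lower in null mice only (0.15 and -0.85), and Thrsp lower in wild-type mice only (-2.81 and -0.11), while the acetyl-CoA carboxylase gene Acacb (2.39 and 0.07) and Elovl3 were higher in wild-type mice only.

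Opposite responses were found in 69 genes, of which 63 were above background on all 4 arrays. Hspa1b, an inducible heat shock protein gene, read 137 and 1364 in wild-type and 186 and 63.4 in null mice, which is 9.92-fold more on Wy14643 in the wild-type and 2.94-fold less in the null pool. The phospholipid transfer protein gene Pltp read 758, 3403, 508 and 192, and the peroxiredoxin-like gene Prxl2a 755, 2575, 629 and 289.7. In these 3 genes the controls lay within 1.5-fold of each other, and the Wy14643 arrays lay on either side of them. Cd36, the fatty acid translocase gene, read 1042, 7290.0, 683 and 396 (responses 2.81 and -0.79), and Apmap 81.0, 788, 83.2 and 48.4. On the other two Cd36 probe sets above background the null response stayed under 1.5-fold (-0.22 and -0.11), whereas all 3 probe sets of Hspa1b and both of Pltp had opposite responses. Klf10, a repressor gene induced by TGF-β, had 1.01 and -1.34, the galectin gene Lgals1 1.40 and -0.96, and the DNA repair gene Apex1 1.02 and -0.87, but a further probe set of Lgals1 and one of Apex1 had null responses under 1.5-fold. Smaller null responses were seen in Etfdh, the electron transfer flavoprotein dehydrogenase gene, with 0.86 and -0.59 just past the threshold, the thioesterase gene Acot3 (0.61 and -0.74) and the pentose phosphate gene Pgd (0.99 and -0.72).

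In the reverse pattern, lower in wild-type and higher in null mice, stood genes of very different kinds. Usp2, a clock-controlled ubiquitin protease gene, read 38.8, 15.5, 43.9 and 140.0, the cytoskeletal septin gene Septin4 67.2, 32.4, 75.5 and 169.8 and the terminal complement gene C9 2279.8 and 77.9 in wild-type and 2581 and 4865 in null mice. Nnmt, which methylates nicotinamide, had -5.39 and 0.76, the glutathione transferase gene Gstm3 -2.25 and 0.93 and the growth factor receptor gene Pdgfrb -1.16 and 0.91. Of 23 classed immediate early genes 3 lay here, namely Egr1 (731, 19.9, 502 and 821), Btg2 (122, 28.2, 134 and 253) and Junb, which dropped at least 15.2-fold in wild-type mice and was 1.65-fold higher in null mice. Fos read 715, 12.9, 571 and 825, a wild-type drop of at least 49.5-fold with a null response of 0.53, and Ier2 behaved likewise (-4.29 and 0.50). In contrast Gadd45g (1.67 and -0.36) and Socs3 (0.86 and 0.12) were higher in wild-type mice only. The transaminase gene Gpt2 (-1.69 and 0.74), Igfbp3, which carries insulin-like growth factors (-2.15 and 0.67), and the interferon-induced GTPase gene Igtp (-0.77 and 0.76) had the same opposite pattern. Further probe sets of Usp2 (-0.44 and 0.82), Septin4 (-0.28 and 0.27) and Btg2 (-1.16 and 0.13) leaned the same ways, but with at least 1 response under 1.5-fold.

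Responses in null mice only were mostly lower. Fabp5, the epidermal fatty acid carrier gene, read 3458 and 4455 in wild-type and 1718 and 402 in null mice, a null response of -2.09 against 0.37 in wild-type mice. The null pair differed 4.27-fold and the wild-type pair 1.29-fold. The water channel gene Aqp1, which marks sinusoidal endothelium, read 248, 167, 307 and 76.5, and was close to the threshold in wild-type mice as well. The phospholipid phosphatase gene Plpp1 had -0.27 and -1.40, the GTPase gene Ola1 -0.05 and -1.40, the transcription factor gene Elk3 0.05 and -1.35 and Tspyl4 -0.32 and -1.33. Further probe sets of Ola1 gave 0.05 and -0.60, just past the threshold, and 0.28 and 0.16, with no drop in null mice. Acss2, which activates acetate for lipid synthesis, had 0.08 and -1.07, beside the sterol and fatty acid synthesis genes named above.

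Of the 41 genes higher in null mice only, those above background on all 4 arrays had responses under 2-fold. They were led by the trefoil gene Tff2 (0.30 and 0.98), the RNA polymerase III subunit gene Polr3f (-0.40 and 0.92) and the coactivator gene Ppargc1b (0.05 and 0.90). Then came Ankhd1 (0.26 and 0.88), Sbno1 (-0.09 and 0.85) and the RNA-binding protein gene Rbm47 (-0.54 and 0.82). Further probe sets of Ankhd1 (-0.49 and -0.08) and Sbno1 (-0.55 and -0.18, and -0.21 and -0.32), above background on all 4 arrays, did not show the rise in null mice. Larger rises in null mice were found in genes below background on other arrays. S100a8 read 12.9, 14.5, 15.7 and 106 and S100a9 14.0, 13.2, 17.6 and 105, genes of neutrophil granule proteins, which put the null Wy14643 array apart from the other 3. The neutrophil genes Camp, Ltf, Mpo and Csf3r were below background on all 4 arrays, Cxcr2 had -0.02 and 0.35, and Lcn2, which hepatocytes make as an acute phase protein, -3.21 and 0.17. The antibody genes Jchain (12.2, 12.4, 18.7 and 46.8) and Ighm (18.7, 13.2, 27.0 and 54.5) were also highest on the null Wy14643 array, while Cd3e, Cd79a and Nkg7 were below background throughout. The part of blood or immune cells in these values was not tested. Interferon-induced genes were split, with 10 of 29 lower in wild-type mice only and 4 higher in null mice only, the latter being Cxcl10 (-0.25 and 0.61), Tap1, Ifit1 and Usp18, of which Cxcl10 alone was above background on all 4 arrays.

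No response past 1.5-fold was seen in 67.1% of all genes classed. Lists in which most members had none included apolipoproteins and lipoprotein remodelling (13 of 21), the tricarboxylic acid cycle (14 of 19) and nuclear receptors and coregulators (22 of 28). Respiratory chain subunits (49 of 69), endoplasmic reticulum stress (17 of 25) and DNA damage repair (15 of 19) were also among them. The share in the apolipoprotein list was below the 67.1% of all genes, and those of endoplasmic reticulum stress and respiratory chain subunits were near it. In the apolipoprotein list the median difference was -0.25. There, 3 genes were higher in wild-type mice only, led by Angptl4 (1.36 and -0.09), an inhibitor of lipoprotein lipase, and 3 were lower, led by Apoa4 (-3.41 and -0.05). Among sterol transport genes, Abcg5 (1046, 712, 569.9 and 747) and Abcg8 (81.8, 101, 56.8 and 55.04), the subunits of a sterol exporter, had no response past 1.5-fold, and neither did the leptin receptor gene Lepr (17.8, 24.2, 19.5 and 15.6). For Abcg5 the responses leaned apart, and its difference was -0.95. Lipe, the hormone-sensitive lipase gene, was above background on the wild-type Wy14643 array only, at 15.2, and Lipg, an endothelial lipase gene, read 36.4, 81.2, 13.7 and 17.0 and was higher in wild-type mice only. Sex-biased liver genes that growth hormone controls moved in both directions in wild-type mice, with 5 of 25 higher and 10 lower in wild-type mice only, among them Mup3 (-2.76 and 0.17), the signal inhibitor gene Socs2 (-3.13 and -0.42) and the receptor gene Ghr (-1.42 and -0.25).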

How the data were processed

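Liver RNA of 4 groups, pooled from mice, was measured on 1 MOE430A array per group. The authors deposited intensity values on the linear scale, computed from the scans with GCRMA (2.20 in the submitters' notes), which corrects background, equalises the distributions of the arrays and summarises probes, so that dim signals are compressed. Whether these 4 arrays were processed alone is not given in the sources used here. Depth has no counterpart on arrays, whose number sets the precision.

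Responses were computed as log2 ratios of the deposited values, and calls were made at 1.5-fold, the study's threshold without replicates. Symbols came from the platform annotation updated through Entrez IDs, with 20380 probe sets tied to 1 symbol, 691 to several and 1555 to none. For classes and lists, values below background were set to 14.5, and the probe set with the highest mean over the 4 arrays stood for a gene. The genes named are those in the study's text, the 12 largest differences in each direction, the 8 (both genotypes) and 6 (opposite, null only, bounds) largest in each direction and the largest or departing members of lists. Other members, and the sex markers, were chosen after their values were seen. The members and lists were chosen with earlier results of these data known. The class rule was tested on simulated data. Alternatives were no floor, 32 added before log2, a 2-fold threshold, stricter filters on dim features, other scalings and other choices of probe set. Python 3.11.15 (numpy 2.4.6, pandas 2.3.3, matplotlib 3.10.9) and R 4.3.3 (limma 3.58.1) were used. The sequence of 1 promoter match is not reported here.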

Additional observations from a re-analysis of the deposited data

Results flagged for a closer look

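Genes named above, or members of the functional lists, whose wild-type and null responses went in opposite directions past 1.5-fold, above background on all 4 arrays, numbered 23. Each group is 1 pool, so each genotype's response is a single ratio of Wy14643 to control, and the difference was not tested. Higher in wild-type and lower in null mice on Wy14643 were 11 genes, with the difference of responses (log2) in parentheses, namely Hspa1b (4.87), Apmap (4.06), Cd36 (3.59), Pltp (3.57), Prxl2a (2.89), Lgals1 (2.36), Klf10 (2.35), Apex1 (1.89), Pgd (1.71), Etfdh (1.45) and Acot3 (1.35). Lower in wild-type and higher in null mice were 12 genes, namely Nnmt (-6.14), Egr1 (-5.91), C9 (-5.79), Gstm3 (-3.18), Btg2 (-3.03), Usp2 (-2.997), Igfbp3 (-2.82), Gpt2 (-2.43), Septin4 (-2.22), Pdgfrb (-2.07), Igtp (-1.53) and Reln (-1.50). Of these genes Etfdh lies closest to the threshold, with a null response of -0.59.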

How the results depend on the processing

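No paired analysis was possible because each group is 1 array, and for the same reason no array could be left out. The counts of genes in the 8 response classes and of probe sets past 1.5-fold stayed within 1.5 times of those reported with deposited values used without a floor, with only features above background on all 4 arrays, with the background doubled, with each array centred on its median, with cyclic loess between arrays and without probe sets that may bind several transcripts. The probe set counts use no floor, so the first and the third of these could not change them. A floor at background for the probe sets, added after the data were seen, gave 2084 higher and 1720 lower.

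With 32 added to every intensity, 1415 probe sets were higher and 1128 lower, 16 genes were higher and 65 lower in both genotypes, 12 and 16 had opposite responses (wild-type higher and lower), and 12 were higher and 36 lower in null mice only. With a 2-fold threshold the counts were 1026 and 859 probe sets, 420 and 411 genes higher and lower in wild-type mice only, 3 and 22 in both genotypes, 4 and 2 with opposite responses and 6 and 17 in null mice only. With the median over a gene's probe sets, 21 genes were lower in wild-type and higher in null mice and 24 were higher in null mice only.

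Over all alternatives, 514 of the recomputed differences of 78 named genes and 329 of the recomputed medians of 45 lists lay within 0.28 on the log2 scale of the value reported, which is the standard deviation of the null response. The other 105 and 25 moved by more, 48 of the 105 and 8 of the 25 with 32 added, and no value that had passed 1.5-fold changed sign. The median of microsomal omega-oxidation, 0.10 as reported, was -0.59 with only genes above background on all 4 arrays and 0.61 with the background doubled. Signals near background are compressed by GCRMA and bound every ratio that touches them.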

Other observations

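Of 29 classed genes of cell division and DNA replication 8 were higher in wild-type mice only, against 11.4% of all genes classed, and 1 was lower, with a median difference of 0.31. They were led by Mcm7, a subunit of the replicative helicase, which read 30.3, 166, 41.1 and 42.4, and by the cell cycle inhibitor gene Cdkn1a, which read 19.5, 67.4, 22.8 and 20.3. Pcna had 0.89 and 0.21 as wild-type and null response and Mcm3 1.09 and -0.10. The proliferation markers Mki67, Top2a and Ccna2 were below background on all 4 arrays. In DNA damage repair 3 of 19 were higher in wild-type mice only (15.8%, near the share of all genes), 15 had no response and the median difference was 0.10. The 3 included Prkdc and the recombination gene Rad51b, which read 131, 788, 18.6 and 18.3.

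Stress pathways differed from each other. Of 25 endoplasmic reticulum stress genes 6 were lower in wild-type mice only, among them the regulator genes Xbp1 (-0.91 and 0.18) and Atf6 (-0.77 and 0.07), and the chaperone gene Hspa5 had -0.23 and 0.02. Of 21 antioxidant genes 4 were higher in wild-type mice only, for example Srxn1 (1.58 and 0.53), and the catalase gene Cat had 0.19 and 0.11. The metal-binding genes Mt1 (-1.30 and 0.04) and Mt2 (-2.01 and 0.04) were lower in wild-type mice only. In the circadian clock list 10 of 17 had no response past 1.5-fold, Dbp (-1.80 and 0.50) and Tef (-1.57 and 0.46) were lower in wild-type mice only, and the clock repressor gene Nfil3 was lower in both genotypes (-0.71 and -1.12). Among pyruvate dehydrogenase genes Pdk1 was lower in both genotypes (-0.998 and -0.67), in contrast to Pdk4. In microsomal omega-oxidation the 8 classed genes ranged from Cyp4f14 to Cyp4a12a, with the aldehyde dehydrogenase gene Aldh3a2 at 2.14 and 0.50.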
